A study of Mus musculus with 16 samples.

Results

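The nuclear genes for the subunits of oxidative phosphorylation were followed in bulk RNA-seq of mouse bone marrow-derived macrophages (BMDMs). Members were taken by gene symbol: protein-coding genes whose symbols begin with Ndufa, Ndufb, Ndufc, Ndufs, Ndufv, Uqcr, Cox4i, Cox5, Cox6, Cox7, Cox8 or Atp5, together with Sdha, Sdhb, Sdhc, Sdhd and Cycs. The rule found 90 of the 55487 genes in the count table. They comprised 38 genes of complex I, 4 of complex II, 8 of complex III, 20 of complex IV, 19 of complex V and the gene of cytochrome c. Ndufa4 and Ndufa4l2, named for complex I, are counted here with complex IV, where the proteins are now placed. Assembly factors and the genes of the mitochondrial chromosome were not members. The rule used no measured value.

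The macrophages came from wild-type Balb/c mice aged 8 weeks, and no group carried a transgene or deletion. Cells received conditioned media (CM) from 4T1 cells, a mouse mammary tumor line, or DMEM as plain medium, with or without ruxolitinib (Rux), an inhibitor of the kinases JAK1 and JAK2. The 16 libraries fell into 6 groups, namely DMEM (n = 2), DMEM + Rux (n = 3), CM (n = 3), CM + Rux (n = 3, labelled 4 h), CM + Rux with IKK-16 (n = 3), an inhibitor of the IKK kinases that act upstream of NF-κB, and a CM + Rux group labelled 2 h (n = 2). Ruxolitinib was used at 0.5 µM with CM and IKK-16 at 0.8 µM. The labels give no dose of ruxolitinib for DMEM + Rux and do not say what the 2 h refers to, and there was no group with IKK-16 alone. The labels do not tie replicate numbers to animals or cultures, so p-values measure the spread between these samples, which may be technical.

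Oxidative phosphorylation is the last stage of respiration in mitochondria. Complex I takes electrons from NADH and complex II from succinate, ubiquinone carries them to complex III, and cytochrome c carries them on to complex IV, where oxygen is reduced. Complexes I, III and IV pump protons across the inner membrane, and complex V, the ATP synthase, uses their return to make ATP. Most subunits are encoded in the nucleus and a few in mitochondrial DNA. Macrophages exposed to inflammatory signals are known for a shift of energy metabolism toward glycolysis, and subunits such as the succinate dehydrogenase of complex II are studied there for their part in signaling.

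Many nuclear respiratory genes are known to carry promoter sites for the transcription factors NRF1, GABPA (of the ETS family) and YY1. Promoters in the RefSeq table of GRCm38.p6, which run from 250 bases before to 50 bases after a transcription start, were matched to 72 of the 90 members, with 77 promoters among them. The letters CGCATGCG (the NRF1 core, its own reverse complement) stood in 10 of those 77 promoters (13.0%) against 1.87% of all 32851 promoters of the same length. CCGGAAG (ETS) stood in 17 (22.1%) against 8.86%, and AAGATGGCG (YY1) in 7 (9.09%) against 1.40%, each on either strand. In all, 28 members held at least 1 of the 3 motifs, among them 11 of complex I and 8 of complex V, and 1 member, Atp5j, held all 3. A match describes the letters only. Windows of 30 bases are shown for members that recur in the results, with the motif in capitals: the NRF1 core of Cycs (chr6:50566612-50566641, minus strand), Atp5g2 (chr15:102671070-102671099, minus strand) and Cox6a1 (chr5:115349101-115349130, minus strand), the YY1 motif of Ndufs7 (chr10:80249463-80249492, plus strand) and the ETS motif, on the opposite strand to the gene, of Sdhd (chr9:50603877-50603906, minus strand). Each is read 5′ to 3′ along its gene.
Cycs: ccatgctagctCGCATGCGcgcgcacaaac
Atp5g2: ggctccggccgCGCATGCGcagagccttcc
Cox6a1: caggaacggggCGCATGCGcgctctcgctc
Ndufs7: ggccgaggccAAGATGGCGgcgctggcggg
Sdhd: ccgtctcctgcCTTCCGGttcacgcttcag

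Libraries held 18449388 to 46215853 counts in genes, and 12372 genes passed the filter of more than 1 CPM (a gene's counts scaled to a fixed library total) in at least 2 samples. Levels are given as CPM after relative log expression (RLE) scaling, and differences as log2 fold changes with their standard errors from edgeR's quasi-likelihood test. That fit did not pair samples by replicate number, and the replicate block named below is a second fit that did. Against scaling by total counts alone, RLE scaling raised every gene in CM against DMEM by 0.311 (log2) and in CM + Rux against DMEM + Rux by 0.301, so a smaller positive difference in those comparisons changes sign without it. The 8 macrophage markers summed to 40110 to 57130 CPM per library. Epithelial markers reached at most 1.45 CPM and neutrophil markers 0.864 CPM. The 6 B-cell markers summed to 10.6 to 15.5 CPM in CM, CM + Rux and CM + Rux + IKK-16, 55.6 to 71.4 in the 2 h group and 80.1 to 143.7 in the groups without CM. Nearly all of this was Ighm, at 11.6 CPM in CM and 110.7 in DMEM on average. Of the defining B-cell markers, Pax5 was at 0 in every library, and Cd79a and Ms4a1 did not exceed 7 counts in any. Fibroblast markers summed to 5.82 to 20.9 CPM and T- and NK-cell markers to 0.712 to 3.74 CPM. The part of these markers in the results was not tested.

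Of the 90 members, 81 passed the filter. Their mean level over the 16 samples, corrected for gene length as RPKM (CPM per kilobase of exon), ran from 0.571 to 153.1 with a median of 26.8. In all, 7 members lay over 100 RPKM, led by Atp5a1, the catalytic-head alpha subunit of complex V, at 153.1 ± 15.7 (SD, n = 16). Cox6b1 had 150.1 ± 15.2, Cox8a 142.3 ± 17.6, Cox6a1 126.3 ± 13.4 and Cox4i1 125.0 ± 7.73 RPKM, all complex IV, so the order of the first 3 lay within their spread. Atp5b, the beta subunit of complex V, followed at 117.7 ± 13.6 RPKM and Ndufa2, a small accessory subunit of complex I, at 111.2 ± 22.4. Another 12 of the 81 lay under 10 RPKM, the lowest being Ndufb2, Atp5s and Cox7a1. The group means of CM and DMEM stood close together next to this range between genes, as the plot of levels by complex shows.

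**Figure D1:**
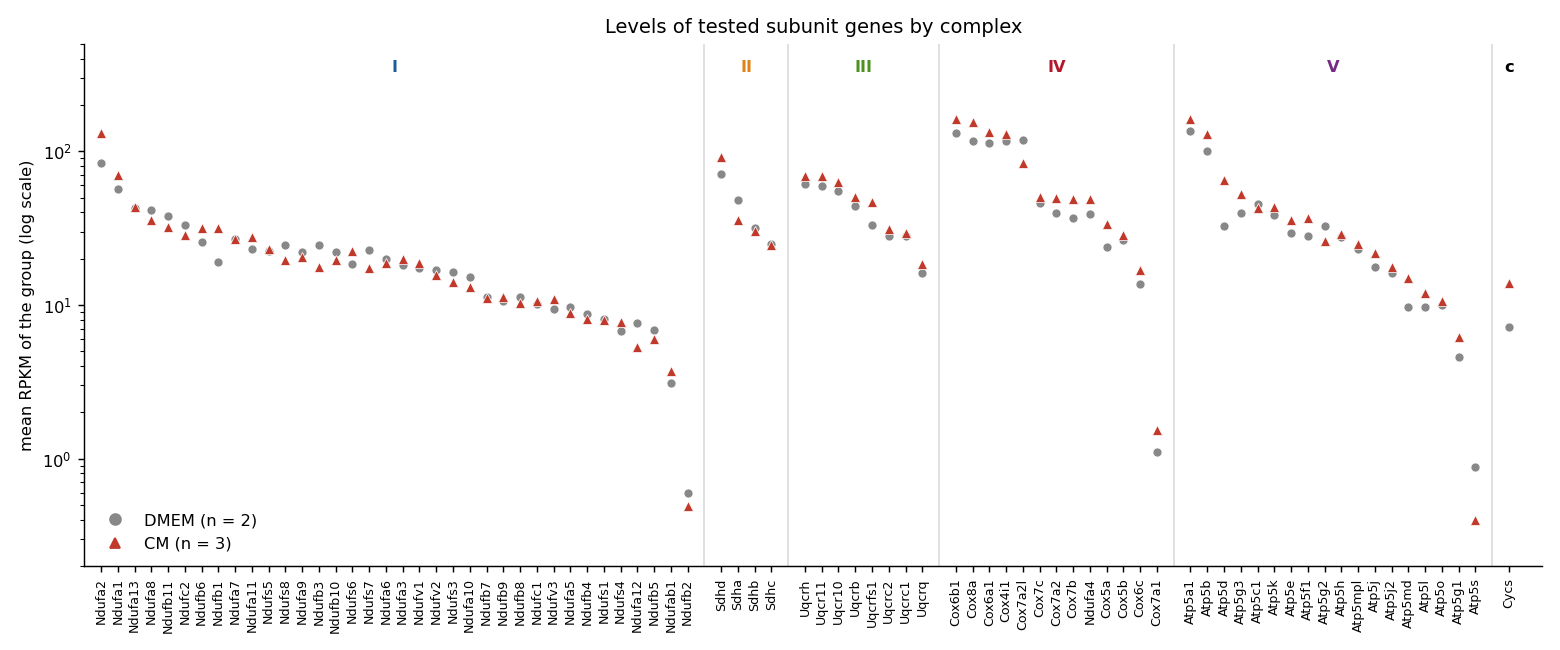
Mean RPKM of 80 of the 81 tested members on a log axis, ordered within complexes I to V and cytochrome c (c), for DMEM (grey circles, n = 2) and CM (red triangles, n = 3). Levels span 0.571 to 153.1 RPKM across genes over all samples, while most pairs of points lie side by side.

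The 9 members that did not pass the filter were mostly the isoforms of other tissues. Cox6a2, Cox6b2 and Cox8b, known from muscle or testis, reached at most 15, 32 and 2 counts in any library, and Cox4i2, the lung isoform of the Cox4 subunit, at most 1. Cox7b2, Cox8c and Ndufa4l2, the last a hypoxia-induced relative of Ndufa4, had 0 counts in all 16 libraries. A count of 0 allows up to 3 counts in a library, or 0.0669 to 0.175 CPM depending on its depth, which covers counting error only. Ndufb4c had at most 3 counts. A second annotated gene under the symbol Atp5o, a readthrough that overlaps Atp5o, had 0 counts, and fragments shared by the pair were lost to both, so the level of Atp5o is uncertain. The muscle isoform Cox7a1 passed the filter at 0.711 CPM on average and gave log2 0.50 ± 0.56 (SE) in CM against DMEM, adjusted p = 0.458. The isoforms measured at higher levels were Cox4i1, Cox6a1, Cox6b1, Cox7a2, Cox8a and Ndufa4.

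With conditioned media, single subunits of the respiratory chain stood clearly higher or lower, and few of them by much. In CM against DMEM, 7 members were called higher and 1 lower (5 and 2 with the replicate block), where called means an adjusted p under 0.05 and a log2 fold change beyond 0.5. Those 8 are 9.88% of the 81 tested, beside 45% of all 12372 genes called in this comparison (20.9% higher and 24.1% lower). The highest were Atp5d and Cycs, and the member called lower was Atp5s. By adjusted p alone, 33 members were higher and 11 lower (31.4% and 30.4% of all genes). The median log2 fold change of the members was 0.138 and that of all genes -0.00496. The middle of the members was also narrower: the median absolute log2 fold change was 0.237 against 0.486 over all genes. With total counts alone, 2 members were called higher and 15 lower and the median was -0.174, against -0.317 for all genes, so the sign of the median is set by the scaling. In bulk RNA, fewer cells of a type and less RNA per cell cannot be told apart.

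The same contrast with ruxolitinib in both arms, CM + Rux against DMEM + Rux, shares no sample with the first. The contrasts are not fully independent, since 1 model gave the spread for both. Same-numbered samples of CM and CM + Rux also deviated together (r of 0.433 to 0.621 across genes). In the second contrast 6 members were called higher and 2 lower (22.3% and 25% of all genes, 47.3% in either direction). By adjusted p alone 30 were higher and 16 lower (33.4% and 33.1% of all genes), and the median was 0.122. The sign of the log2 fold change was the same in 79 of the 81 members, with Pearson's r = 0.951 across members, beside 90.4% and 0.944 over all genes. These describe genes, which are not independent replicates. In all, 7 members, Cycs, Atp5d, Ndufb1, Ndufa2, Atp5md, Cox5a and Atp5s, were called in both comparisons (7 of 8 in each), although Cox5a lost its call in CM against DMEM with the replicate block. By adjusted p alone, 26 members were higher in both and 10 lower in both. The share of all genes called, or past the adjusted p, in both comparisons was not counted. These overlaps therefore do not set the members apart from other genes.

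**Figure D2:**
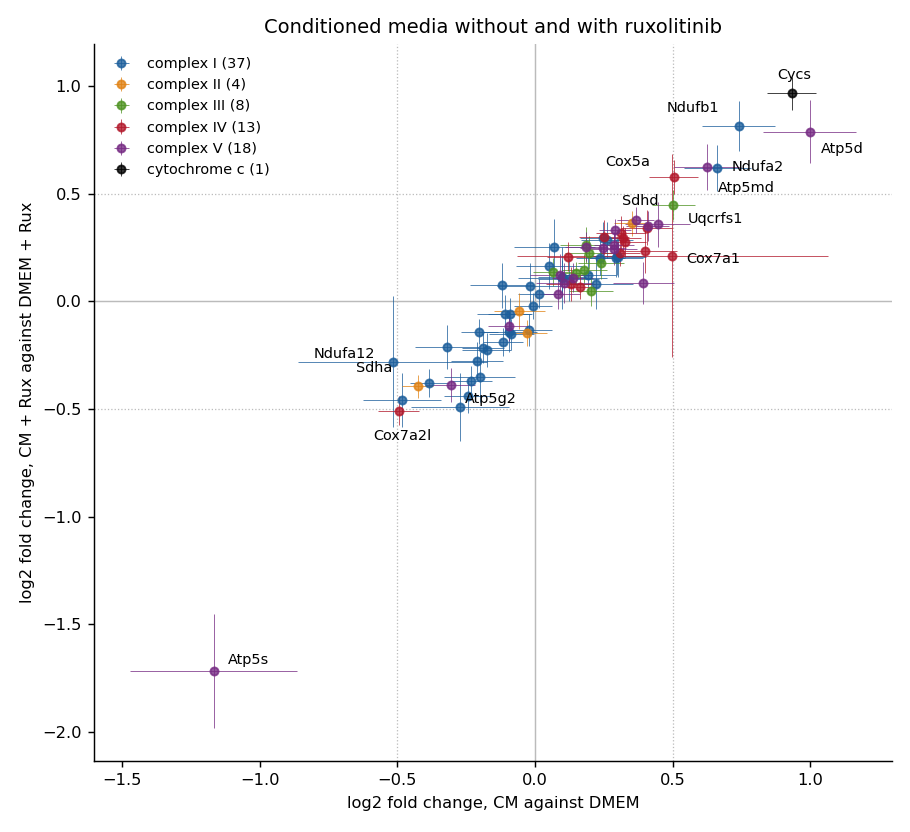
Log2 fold change of each tested member in CM against DMEM (x) and in CM + Rux against DMEM + Rux (y), coloured by complex, with bars of 1 standard error and dotted lines at 0.5. Points run along the diagonal from Atp5s at the lower left to Cycs and Atp5d at the upper right, and 79 of 81 have the same sign on both axes.

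Cytochrome c showed the clearest difference. Cycs, the mobile carrier between complexes III and IV that also acts in apoptosis, stood at 25.2 and 23.9 CPM in DMEM and 22.5, 22.4 and 23.1 CPM in DMEM + Rux. It stood at 45.6, 50.7 and 44.4 CPM in CM and 43.1, 48.4 and 41.2 CPM in CM + Rux. All 6 libraries with CM lay above all 5 without it. The log2 fold change was 0.93 ± 0.09 (SE) in CM against DMEM (edgeR, adjusted p = 9.21e-07) and 0.97 ± 0.08 with ruxolitinib (adjusted p = 1.17e-07), or 1.91-fold and 1.95-fold. Scaled by total counts alone it was still 0.62 and 0.66.

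Complex I, the largest complex, had no common direction. In CM against DMEM, 8 of its 37 tested genes were higher and 7 lower by adjusted p, beside 31.4% and 30.4% of all genes, with a median of -0.0228. Total counts alone, which set every gene lower by 0.311 (log2), gave a split of 2 higher and 24 lower. The shares of all genes just given do not apply to that split. Ndufb1 stood at 21.4 and 22.4 CPM in DMEM and 32.6, 38.7 and 38.2 CPM in CM, log2 0.74 ± 0.13 (adjusted p = 0.000257). In the comparison with ruxolitinib it stood at 20.0, 20.9 and 25.3 against 32.4, 42.7 and 41.1 CPM, log2 0.81 ± 0.12. The groups did not overlap in either comparison. This accessory subunit is a protein-coding gene in RefSeq, whereas the GENCODE annotation used here for names lists it as Ndufb1-ps, a noncoding transcript from a bidirectional promoter.

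Ndufa2, a small accessory subunit, was at 48.6 and 46.9 CPM in DMEM and 70.9, 85.1 and 70.5 CPM in CM, with log2 0.66 ± 0.12 (adjusted p = 0.00032). The same gene gave log2 0.62 ± 0.11 with ruxolitinib. It and Ndufb1 were the members of complex I called in both comparisons. Ndufs7 and Ndufs8 are core subunits that carry iron-sulfur clusters on the path to ubiquinone. Ndufs7 was lower, at 29.3, 30.2 and 29.9 CPM in CM and 39.4 and 38.4 CPM in DMEM, log2 -0.38 ± 0.07 (adjusted p = 0.000324), and -0.38 ± 0.06 with ruxolitinib, short of the fold threshold. Ndufs8 was lower by adjusted p in the first comparison only, at log2 -0.32 ± 0.12 and -0.21 ± 0.10 (adjusted p = 0.0278 and 0.0851), and the difference between the comparisons, tested as the interaction, did not pass for any member.

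Of other core subunits of complex I, Ndufs1, which holds clusters of the NADH arm, gave log2 -0.02 ± 0.08 and Ndufv1, the NADH-binding subunit, 0.10 ± 0.09, neither past the threshold. Ndufv2 gave -0.11 ± 0.10 and Ndufs3 -0.21 ± 0.10 (adjusted p = 0.0708). Among accessory subunits, Ndufb3 was lower, at 12.5, 14.4 and 13.6 CPM in CM and 18.5 and 19.3 CPM in DMEM, log2 -0.48 ± 0.14. Ndufb11 (-0.24 ± 0.09), Ndufa8 (-0.23 ± 0.08), Ndufa10 (-0.20 ± 0.07) and Ndufb5 (-0.19 ± 0.08) were lower as well, and these 5 were also lower with ruxolitinib in both arms. Ndufa12 varied widely, from 5.94 to 16.8 CPM over the 16 samples, and gave log2 -0.52 ± 0.34 (adjusted p = 0.206).

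The 4 genes of complex II, succinate dehydrogenase, split. Sdha, the flavoprotein that binds succinate, stood at 193 and 205 CPM in DMEM and 147, 149 and 148 CPM in CM, and at 204, 201 and 215 CPM in DMEM + Rux and 158, 157 and 156 CPM in CM + Rux. It was lower by log2 -0.43 ± 0.06 (adjusted p = 2.2e-05) and -0.40 ± 0.05 (adjusted p = 1.25e-05), with no overlap of groups in either. Sdhd, a membrane anchor of the same enzyme, stood at 90.6 and 85.4 CPM in DMEM and 112, 116 and 109 CPM in CM. It was higher by log2 0.35 ± 0.07 (adjusted p = 0.000335) and 0.36 ± 0.06 (adjusted p = 7.98e-05), though with total counts alone these were 0.04 and 0.06 and missed the threshold. Sdhb, the iron-sulfur subunit, gave -0.06 ± 0.09 and Sdhc, the other anchor, -0.03 ± 0.07, neither past the threshold in CM against DMEM. With ruxolitinib in both arms Sdhc was lower by log2 -0.15 ± 0.06 (adjusted p = 0.0482), a pass kept in 9 of 24 alternatives.

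A ratio of counts within a library does not depend on how libraries are scaled. The ratio of Sdhd to Sdha counts was 0.759 ± 0.021 (SD, n = 3) in CM and 0.442 ± 0.036 (n = 2) in DMEM, and 0.751 ± 0.019 (n = 3) in CM + Rux and 0.445 ± 0.012 (n = 3) in DMEM + Rux. The lowest value with CM in these groups was 0.732 and the highest without it 0.468. The pair was chosen after its values were seen, and no test was made.

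All 8 genes of complex III had a positive log2 fold change in both comparisons of media, but with total counts alone 7 of the 8 were negative in each. Uqcrfs1, the Rieske iron-sulfur subunit that passes electrons from ubiquinol toward cytochrome c1, stood at 46.0 and 44.3 CPM in DMEM and 62.2, 66.6 and 63.2 CPM in CM. Its log2 fold change was 0.50 ± 0.08 (adjusted p = 8.9e-05), and 0.45 ± 0.07 with ruxolitinib, which fell short of the fold threshold. With the replicate block it fell short in the first comparison too. The structural core subunits differed less, Uqcrc1 by 0.07 ± 0.07 (adjusted p = 0.439) and Uqcrc2 by 0.15 ± 0.06 (adjusted p = 0.0358, and log2 -0.16 with total counts alone). Cyc1, cytochrome c1 of the same complex and no member by its symbol, gave 0.34 ± 0.07 (adjusted p = 0.0012).

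In complex IV, cytochrome c oxidase, 9 of 13 tested genes were higher and 1 lower by adjusted p in CM against DMEM, beside 31.4% and 30.4% of all genes, with a median of 0.312. Total counts alone, which set every gene lower by 0.311 (log2), left 1 higher and 2 lower, and those shares of all genes do not apply there. Cox5a, a matrix-side subunit, was the member called higher, at 49.0 and 51.2 CPM in DMEM and 63.6, 78.0 and 71.3 CPM in CM, log2 0.50 ± 0.09 (adjusted p = 0.000248), though short of the fold threshold with the replicate block. In the second comparison it was 50.2, 51.5 and 50.9 against 71.3, 82.7 and 73.5 CPM, log2 0.58 ± 0.08. Its matrix-side neighbour Cox5b gave 0.12 ± 0.08 (adjusted p = 0.186) and 0.21 ± 0.07 (adjusted p = 0.0161). The 7 subunits Cox4i1, Cox6a1, Cox6b1, Cox7a2, Cox7b, Cox8a and Ndufa4 had log2 fold changes from 0.16 to 0.41 in CM against DMEM, each past the adjusted p threshold, and of these Cox4i1, Cox6a1 and Cox7a2 turned negative with total counts alone.

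Cox7a2l went the other way. The gene encodes a relative of Cox7a2 that is known for joining complexes III and IV into supercomplexes. It stood at 174 and 178 CPM in DMEM and 126, 123 and 126 CPM in CM, and at 176, 176 and 189 CPM in DMEM + Rux and 135, 120.4 and 126 CPM in CM + Rux. The log2 fold change was -0.50 ± 0.08 (adjusted p = 6.54e-05), just inside the fold threshold and so not called, and -0.51 ± 0.07 (adjusted p = 1.57e-05), which was called. Groups did not overlap, and with total counts alone the log2 fold change was -0.80 and -0.81. Within libraries, the ratio of Cox7a2 to Cox7a2l counts was 0.374 ± 0.021 (SD, n = 3) in CM and 0.214 ± 0.005 (n = 2) in DMEM, a description with no test of a pair chosen after its values were seen.

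**Figure D3:**
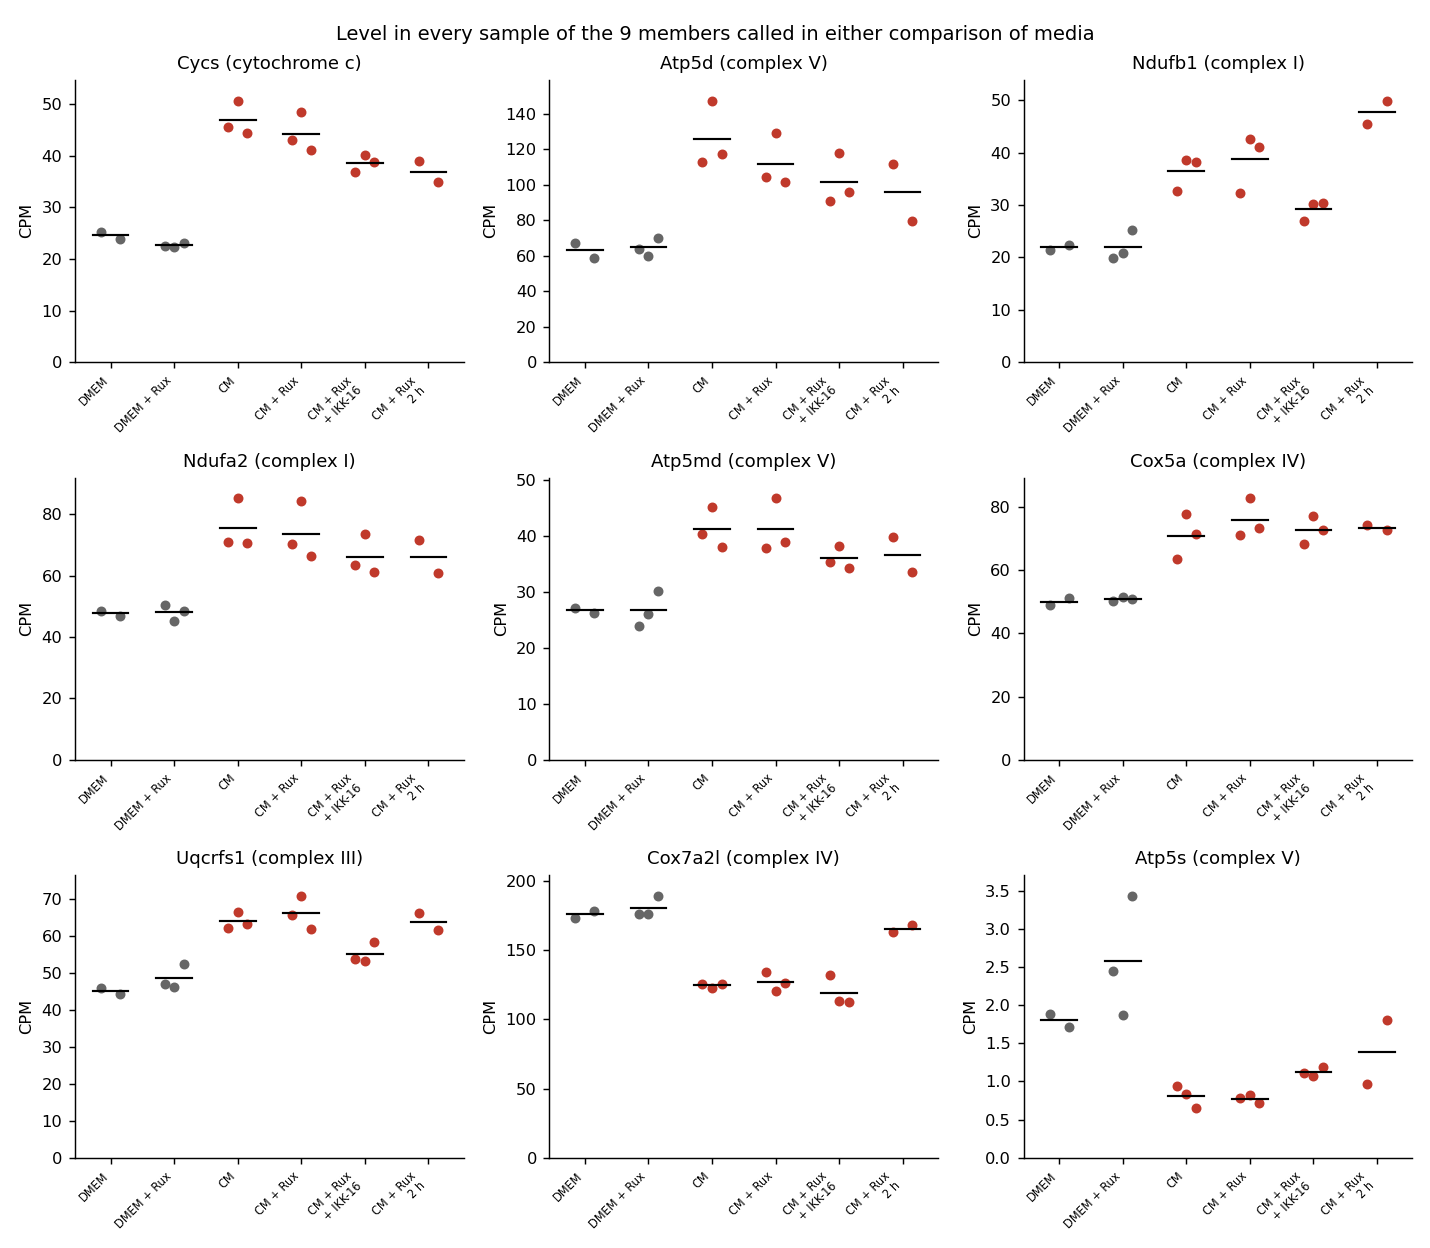
CPM (RLE-scaled) in each of the 16 libraries for the 9 members called in CM against DMEM or in CM + Rux against DMEM + Rux, with group means as lines. Grey libraries without CM and red libraries of the CM and CM + Rux groups do not overlap in any of the 9 panels. The 9 members were drawn because they were called in these same libraries, so this separation is no further result. Cox7a2l and Atp5s are the panels in which CM lies lower.

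Complex V held both the highest and the lowest log2 fold change among the members in CM against DMEM, while with ruxolitinib Cycs and Ndufb1 lay above Atp5d. Atp5d, the delta subunit of the central stalk that turns within the catalytic head, stood at 67.3 and 58.9 CPM in DMEM and 113, 147 and 118 CPM in CM. It stood at 64.0, 60.1 and 70.3 CPM in DMEM + Rux and 105, 129 and 101 CPM in CM + Rux. Its log2 fold change was 0.998 ± 0.17 (adjusted p = 0.000159) and 0.79 ± 0.15 (adjusted p = 3e-04). Replicate 2 was the highest library for Atp5d in CM, CM + Rux and CM + Rux + IKK-16. Atp5md, a small membrane subunit, gave 0.63 ± 0.12 and 0.62 ± 0.11, with 38.0 to 45.1 CPM in CM against 26.3 to 27.2 in DMEM.

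The catalytic alpha and beta subunits, the most abundant mRNAs of the enzyme, differed modestly. Atp5b stood at 444 and 410.1 CPM in DMEM and 542, 559 and 551 CPM in CM, log2 0.37 ± 0.07 (adjusted p = 0.000325). With total counts alone Atp5b was at 0.06 and missed the threshold. Atp5a1 gave 0.25 ± 0.08 (adjusted p = 0.0187), which became -0.07 with total counts alone. Over the complex, 10 of 18 tested genes were higher and 2 lower by adjusted p in CM against DMEM. Of all genes, 31.4% were higher and 30.4% lower. With total counts alone, which set every gene lower by 0.311 (log2), the counts were 2 and 6, and these shares do not apply. Atpif1, the inhibitor that binds the enzyme when it runs backward and no member by its symbol, was lower by log2 -0.39 ± 0.09 (adjusted p = 0.00251) and -0.26 ± 0.08 (adjusted p = 0.0127).

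Atp5s was the member called lower in both comparisons, and the least expressed of the called members. It stood at 1.89 and 1.72 CPM in DMEM and 0.945, 0.831 and 0.651 CPM in CM, and at 2.44, 1.87 and 3.43 CPM in DMEM + Rux and 0.782, 0.823 and 0.712 CPM in CM + Rux. The log2 fold change was -1.17 ± 0.30 (adjusted p = 0.00419) and -1.72 ± 0.27 (adjusted p = 5.79e-05). At no more than 106 counts in any library its standard error was larger than that of the other called members. RefSeq lists it as Dmac2l.

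Atp5g1, Atp5g2 and Atp5g3 are known to encode the same mature c subunit, which forms the rotor ring of complex V, behind different import sequences. Their mRNAs moved apart. In CM against DMEM, Atp5g1 gave log2 0.45 ± 0.12 (adjusted p = 0.00461), Atp5g3 0.41 ± 0.08 (adjusted p = 0.000433) and Atp5g2 -0.31 ± 0.09 (adjusted p = 0.00819). With ruxolitinib in both arms they were 0.36 ± 0.10, 0.35 ± 0.07 and -0.39 ± 0.08. With total counts alone the first pair stayed positive but missed the threshold, and Atp5g2 was at -0.61 and -0.69. The share of Atp5g2 in the summed RPKM of the 3 genes, which does not depend on scaling, was 30.9 ± 1.9% (SD, n = 3) in CM and 42.5 ± 4.0% (n = 2) in DMEM, and 31.4 ± 0.5% (n = 3) in CM + Rux and 43.3 ± 1.0% (n = 3) in DMEM + Rux. In these 4 groups the highest share with CM was 32.8% and the lowest without it 39.6%. Of the 3 promoters, only that of Atp5g2 held any of the motifs searched, the NRF1 core printed above.

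**Figure D4:**
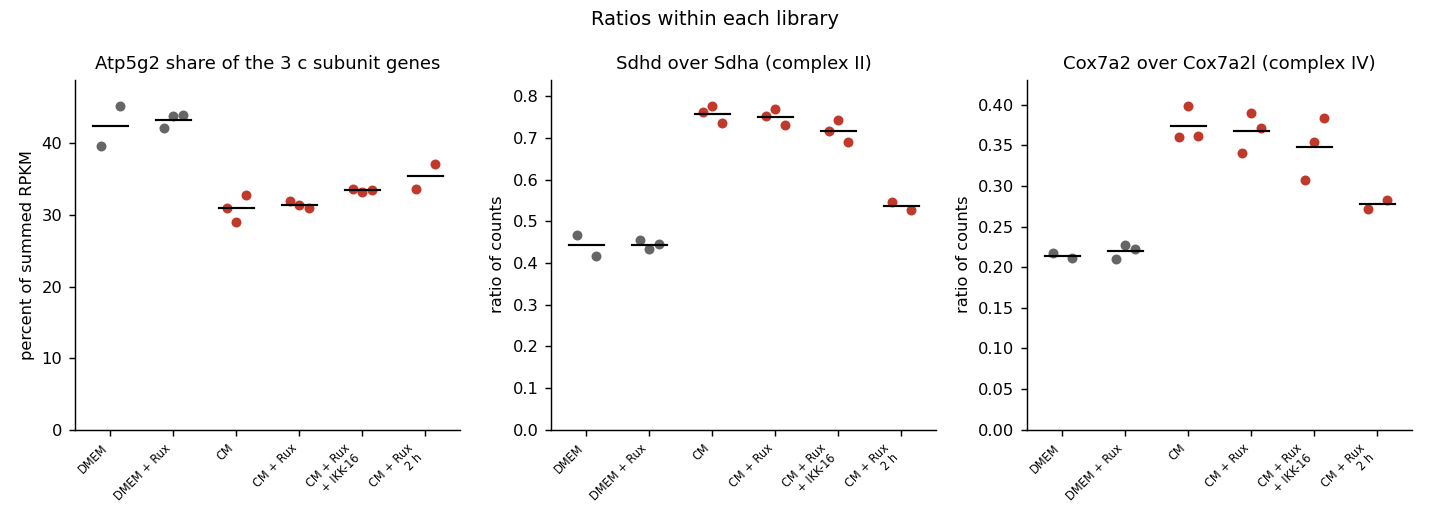
Quantities within each library, by group with the mean as a line: the share of Atp5g2 in the summed RPKM of Atp5g1, Atp5g2 and Atp5g3 (percent), and the ratios of counts of Sdhd to Sdha and of Cox7a2 to Cox7a2l. With CM the share of Atp5g2 is lower (29.1 to 32.8% in CM, 39.6 to 45.3% in DMEM) and both ratios are higher, and the 2 h group lies between.

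No member differed detectably with ruxolitinib alone. In CM + Rux against CM, edgeR called 0 of 81 members higher and 0 lower (1.2% and 2.13% of all genes). The smallest adjusted p was 0.285, 1 member had an unadjusted p under 0.05, and DESeq2 also called 0. With the replicate block in edgeR the smallest adjusted p was nearer the threshold, at 0.0696. There 0 members passed, beside 12% of all genes. The log2 fold changes ran from -0.224 for Atp5f1 to 0.198, and for 78 of the 81 members the 95% interval lay within 0.5 of 0. For Cycs the interval was -0.25 to 0.08, for Sdha -0.03 to 0.20 and for Atp5d -0.49 to 0.14. In DMEM + Rux against DMEM, 0 members were called in either direction (0% of all genes higher and 0.970% lower). The smallest adjusted p was 0.901, 1 member had an unadjusted p under 0.05, DESeq2 called 0, and 77 of 81 intervals lay within 0.5 of 0. The replicate block gave a smallest adjusted p of 0.532 by edgeR, with 0 members and 1.54% of all genes passing. The interaction of CM and ruxolitinib passed for 0 members, with 0 unadjusted p under 0.05 and 0 calls by DESeq2 (0.412% of all genes by edgeR). Its smallest adjusted p by edgeR was 0.576, and 0.145 with the replicate block, where 0 members and 4.39% of all genes passed.

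With IKK-16 added to CM and ruxolitinib, a few members were slightly lower. In CM + Rux + IKK-16 against CM + Rux, 0 members were called higher and 0 lower by edgeR and by DESeq2 (4.07% and 3.66% of all genes), with 11 unadjusted p under 0.05. By adjusted p alone 0 were higher and 3 lower (6.72% and 7.65% of all genes). Ndufb1 stood at 26.9, 30.2 and 30.5 CPM with IKK-16 and 32.4, 42.7 and 41.1 CPM without, log2 -0.41 ± 0.11 (adjusted p = 0.0285). Uqcrfs1 was at 53.9, 53.2 and 58.4 against 65.7, 70.8 and 62.0 CPM, log2 -0.26 ± 0.07 (adjusted p = 0.021). Atp5b was at 468, 473 and 501 against 542, 549.9 and 575 CPM, log2 -0.21 ± 0.06 (adjusted p = 0.0303). Each group pair was free of overlap. With total counts alone Ndufb1 still passed, while Uqcrfs1 (-0.18) and Atp5b (-0.12) did not, and over 24 alternatives the pass was lost in 5 for Ndufb1, 7 for Uqcrfs1 and 8 for Atp5b. When replicate numbers were entered as a block, 7 members rather than 3 were lower and 0 higher. With that block 27.6% of all genes passed the adjusted p in either direction.

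Against CM, the same IKK-16 samples had 0 members called higher and 0 lower by edgeR and DESeq2 (6.60% and 6.13% of all genes), with 11 unadjusted p under 0.05. By adjusted p alone 5 were lower (12.1% of all genes) and 0 higher (11%). With the replicate block these were 10 and 1, beside 36.2% of all genes in either direction. The 5 were Cycs at log2 -0.28 ± 0.08 (adjusted p = 0.017), Atp5f1, a stalk subunit of complex V, at -0.33 ± 0.10, Uqcrfs1 at -0.21 ± 0.07, Cox5b at -0.21 ± 0.07 and Atp5b at -0.20 ± 0.06. Cycs stood at 36.8, 40.2 and 38.9 CPM with IKK-16, below the CM libraries and above the 23.9 to 25.2 CPM of DMEM. With total counts alone, Atp5f1 still passed at log2 -0.22, and Cycs, Uqcrfs1, Cox5b and Atp5b no longer did.

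The 2 h group differed from CM + Rux in 11 members, none beyond the fold threshold. In CM + Rux 2 h against CM + Rux, 0 members were called higher and 0 lower by edgeR and DESeq2 (12.6% and 10.7% of all genes), with 18 unadjusted p under 0.05. By adjusted p alone 9 were higher and 2 lower (18.2% and 20.0% of all genes). With the replicate block these were 12 and 4, beside 49% of all genes in either direction. Sdha stood at 208 and 204 CPM in the 2 h group and 158, 157 and 156 CPM in CM + Rux, log2 0.39 ± 0.06 (adjusted p = 0.000159). Ndufs7 stood at 39.4 and 40.0 against 32.4, 29.4 and 29.6 CPM, log2 0.38 ± 0.07. Cox7a2l stood at 163 and 168 against 135, 120.4 and 126 CPM, log2 0.38 ± 0.08.

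The other members higher in the 2 h group were Ndufb3 (0.45 ± 0.14), Ndufc2 (0.41 ± 0.13), Ndufb11 (0.36 ± 0.09), Ndufb5 (0.25 ± 0.08), Atp5g2 (0.25 ± 0.09) and Sdhc (0.20 ± 0.07). Lower were Cycs, at 39.0 and 34.9 CPM, log2 -0.26 ± 0.09, and Ndufab1, the acyl carrier protein that is also a complex I subunit, at -0.27 ± 0.09. This comparison and CM + Rux against DMEM + Rux share the CM + Rux samples, so their values stand side by side without a test of likeness: for Sdha 0.39 and -0.40, for Ndufs7 0.38 and -0.38, for Cox7a2l 0.38 and -0.51, and for Cycs -0.26 and 0.97.

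**Figure D5:**
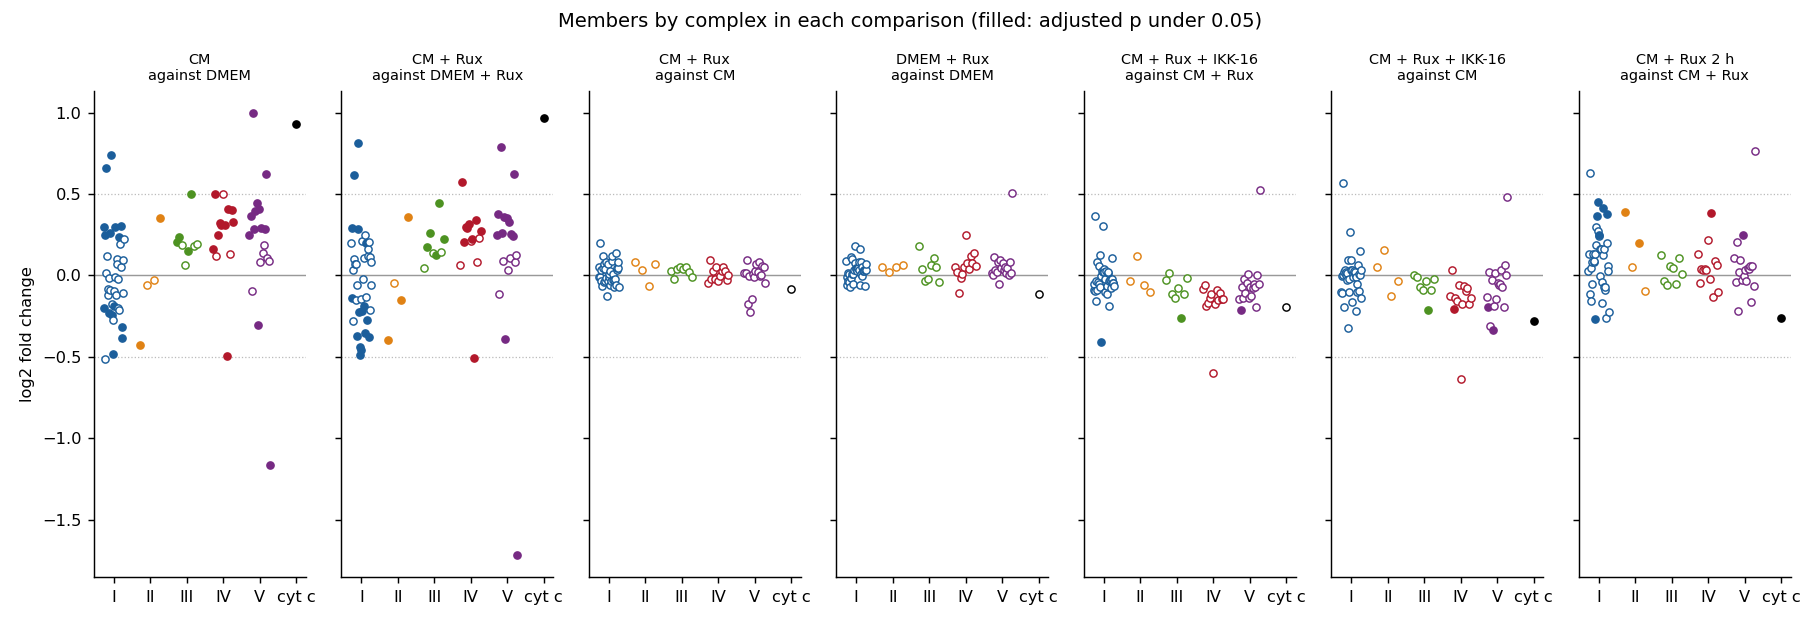
Log2 fold change of the 81 tested members by complex (I to V and cytochrome c) in 7 comparisons, filled where the adjusted p is under 0.05, with dotted lines at 0.5. Points spread most widely in the 2 comparisons of media, down to -1.17 and -1.72 (Atp5s), are unfilled in both comparisons that add ruxolitinib alone, and have 3, 5 and 11 filled points in the last 3 panels.

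Over all 6 groups together, 51 of the 81 members (63.0%) differed by the F test of edgeR at an adjusted p under 0.05, beside 78.4% of all genes. They were 16 of 37 in complex I, 3 of 4 in complex II, 6 of 8 in complex III, 11 of 13 in complex IV, 14 of 18 in complex V and Cycs. Complex I thus had the lowest share, with no test of the difference between complexes. Without scaling, members took 0.478 to 0.498% of the counts of the libraries in every CM group and 0.526 to 0.573% of those in the groups without CM. After RLE scaling they summed to 5249 ± 272 CPM (SD, n = 3) in CM and 4672 ± 29 (n = 2) in DMEM. With ruxolitinib the sums were 5268 ± 227 (n = 3) in CM + Rux and 4787 ± 225 (n = 3) in DMEM + Rux. The direction of the summed level thus depends on the scaling.

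The machinery around the complexes is given from lists of related genes. Of 46 tested assembly factors, 5 were called higher and 15 lower in CM against DMEM, with a median of -0.0878. That is 43.5% called, near the 45% of all genes (20.9% higher and 24.1% lower), which is the background for the counts of the lists that follow as well. Ttc19, a factor for complex III, rose by log2 2.11 ± 0.20 (adjusted p = 8.77e-07) and Cox17, a copper chaperone for complex IV, by 1.31 ± 0.13. Ndufaf7, a methyltransferase for the assembly of complex I, fell by log2 -1.98 ± 0.21 and Sdhaf3, a factor for complex II, by -1.01 ± 0.24. With ruxolitinib in both arms 6 were called higher and 14 lower (22.3% and 25% of all genes), among them Ttc19 (1.98 ± 0.17) and Ndufaf7 (-1.55 ± 0.18).

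Of 18 genes for other routes of electrons to ubiquinone and for ubiquinone synthesis, 2 were called higher and 5 lower. Gpd2, the mitochondrial glycerol phosphate dehydrogenase, rose by log2 2.25 ± 0.15 (adjusted p = 4.43e-08) and 2.54 ± 0.13 with ruxolitinib in both arms. With IKK-16 it was lower than in CM + Rux by log2 -0.65 ± 0.12 (adjusted p = 0.00408). Prodh, proline dehydrogenase, fell by log2 -1.32 ± 0.24. Of 8 tested carriers of adenine nucleotides and phosphate and related genes, 2 were called higher and 0 lower, among them Vdac1, a pore of the outer membrane, by 0.52 ± 0.10.

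Of 20 tested regulators of mitochondrial biogenesis, 3 were called higher and 2 lower. Nrf1, the factor whose core motif was searched above, rose by log2 0.82 ± 0.13 (adjusted p = 0.000101) and 0.93 ± 0.12 with ruxolitinib in both arms, while Ppargc1b, a coactivator of respiratory genes, fell by -2.61 ± 0.42 and -2.88 ± 0.40. IKK-16 samples had more Ppargc1b than CM + Rux, log2 1.79 ± 0.40 (adjusted p = 0.00952). Of 22 tested genes of the citrate cycle and its entry, complex II left out, 4 were called higher and 3 lower, with Mdh2, malate dehydrogenase, at 0.81 ± 0.08 and Pdk2, a kinase that inhibits pyruvate dehydrogenase, at -1.67 ± 0.23. The 10 tested genes of the mitochondrial chromosome, which encode the remaining subunits, had 0 calls in either direction by edgeR, with 1 unadjusted p under 0.05 and a median of 0.0603. Of 77 tested mitochondrial ribosomal protein genes 6 were called higher, by up to log2 1.77 ± 0.12 for Mrpl52, and 4 lower, down to -0.98 ± 0.18 for Mrps6. Of 85 taken by symbol as cytosolic, 4 were called higher and 0 lower, with Rpl7l1 (0.75 ± 0.10) the largest among those called.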

How the data were processed

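Libraries from BMDM RNA were prepared with a stranded TruSeq kit and sequenced by the authors. Per the study's methods and the submitters' processing notes, reads were trimmed with Trimmomatic 0.33, aligned with HISAT2 2.1.0 to GRCm38, and counted as fragments per gene on the reverse strand with featureCounts 1.6.2 on Ensembl release 100. The authors deposited raw counts for 16 samples, and nothing was pooled. Reads that could not be assigned to 1 gene were not counted, so members with close copies may be undercounted.

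Gene symbols came from GENCODE M21, with RefSeq for 3 members that it lists under another symbol or not as protein-coding. The members and gene lists were chosen with earlier results of these data known. The filter on low genes required over 1 CPM in 2 or more samples. All 16 samples entered 1 edgeR (4.0.16) quasi-likelihood model of 6 groups under R 4.3.3, with RLE scaling and Benjamini-Hochberg adjustment over all 12372 genes. RPKM used the gene lengths in the count table. Intervals are at the 95% level. The script was tested on simulated data. Members named by rule were the 5 largest called changes in each direction, complex II, Cycs, core subunits, isoform genes and the 5 highest RPKM, and from each list the largest called change in each direction. The c-subunit genes, the other members past the adjusted p alone, Ndufa12, Atp5f1, Cyc1, the ratio pairs and the windows printed were chosen after their values were seen. Values of a few genes that the rule names are not reported here.

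Replicates of a group differed beyond counting noise (chi-square over its degrees of freedom, 13.4 to 50.8). Same-numbered samples of the groups compared deviated together in 18 of 18 pairs (r of 0.172 to 0.631, median 0.371, across genes), so the numbers were taken to pair the samples, although the labels do not say what a number marks. The standard errors, intervals and p-values of the results nevertheless come from the fit without this pairing, unless the block is named. The fit with the number as a block called 5 members higher and 2 lower in CM against DMEM, where the fit without it called 7 and 1. Alternatives were other scalings, filters, DESeq2 1.42.0, a fit of the compared groups alone, no fold threshold, and leaving out each replicate.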

Additional observations from a re-analysis of the deposited data

How the results depend on the processing

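Scaling mattered most. With total counts alone, CM against DMEM had 2 members called higher and 15 lower with a median log2 fold change of -0.174, and CM + Rux against DMEM + Rux had 2 and 14 with a median of -0.181. The medians became 0.0202 in CM + Rux + IKK-16 against CM + Rux, 0.0741 against CM, and -0.0219 in CM + Rux 2 h against CM + Rux, and the summed level of the members was 4832 CPM in CM and 5335 in DMEM. Positive members went from 53 to 17 in CM against DMEM and from 55 to 14 with ruxolitinib in both arms. Among the members past the adjusted p that were refitted by name, those that turned negative in CM against DMEM were Uqcrc2 (-0.16), Cox4i1 (-0.15), Cox6a1 (-0.062), Cox7a2 (-0.0026) and Atp5a1 (-0.0656). In CM + Rux against DMEM + Rux they were Uqcrc2 (-0.17), Cox5b (-0.0949), Cox6a1 (-0.0045), Cox6b1 (-0.0097), Cox7a2 (-0.0746), Ndufa4 (-0.0284) and Atp5a1 (-0.0565). These shifts follow from the scaling itself, which moved every gene alike.

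Without a fold threshold, 33 members were higher and 11 lower in CM against DMEM, 30 and 16 in CM + Rux against DMEM + Rux, 3 were lower in CM + Rux + IKK-16 against CM + Rux and 5 against CM, and 9 were higher and 2 lower in the 2 h comparison. In CM against DMEM, 2 members were called lower with TMM, with only the groups compared, and with the replicate block, which gained Ndufb3 and left Cox5a and Uqcrfs1 short of the fold threshold. The block raised the adjusted p counts with IKK-16 from 3 to 7 and from 5 to 10 and the lower count in the 2 h comparison from 2 to 4. With the block, 27.6%, 36.2% and 49% of all genes passed in those comparisons, in that order and in either direction. In the other comparisons no count by adjusted p changed by over 1.5 times. With no filter or edgeR's own filter, 1 member was called lower in CM + Rux against DMEM + Rux. Of the 2 called lower in the main fit, Atp5s kept both thresholds in every alternative. Cox7a2l kept the adjusted p in all 24, with a log2 fold change as small as -0.499 when all libraries were kept. With no filter 1 was called higher in the 2 h comparison, and the cause was not tested.

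Leaving out 1 library gave 5 to 8 members called higher and 1 to 3 lower in CM against DMEM, with 2 lower without CM replicate 1 or 2 and 3 without DMEM replicate 1. The same comparison with ruxolitinib gave 6 to 7 higher and 2 to 3 lower. Without CM + Rux replicate 1, 1 member was called lower with IKK-16 (0 to 1 over all libraries), and 1 was called higher in the 2 h comparison without either 2 h library, CM + Rux replicate 2 or DMEM + Rux replicate 3 (0 to 1). Over 1741 refits of 73 named results, 1559 kept their direction and side of the threshold, 170 kept the direction alone and 12 reversed, all under total counts alone. Cycs, Atp5d, Ndufb1, Ndufa2, Atp5md, Cox5a, Sdha, Ndufs7, Cox7a2l and Atp5s passed the adjusted p in every alternative run in both media comparisons, while Sdhc with ruxolitinib in both arms kept its pass in 9 of 24. With groups of 2 or 3, differences smaller than the intervals given were not detectable.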
